A study of Mus musculus with 6 samples.

Results

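The genes followed here are 10 transcriptional regulators of mitochondrial content and fuel use: the PGC-1 coactivators Ppargc1a and Ppargc1b, the estrogen-related receptors Esrra, Esrrb and Esrrg, the nuclear respiratory factor Nrf1, the mitochondrial transcription factor Tfam, and the peroxisome proliferator-activated receptors Ppara, Ppard and Pparg. They were selected by symbol, with no limit on their values, and each of the 10 was found among the 23367 gene entries of the deposited table. PGC-1 proteins do not bind DNA themselves but are recruited by nuclear receptors and other factors, among them the ERR and PPAR proteins and NRF1, to activate genes of respiration and fatty acid oxidation. NRF1 in turn binds genes of the respiratory chain and of mitochondrial transcription. TFAM, encoded by a nuclear gene and imported, packages the mitochondrial genome and acts in its transcription. In adult muscle this network is known for its response to endurance exercise, fasting and cold.

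RNA was taken from the gastrocnemius, a calf muscle of mostly fast fibres, of wild-type mice of the FVB strain with no treatment named, and polyadenylated RNA gave 6 sequencing libraries. The late embryo (E18.5) library was pooled from several mice of both sexes and the PN2 library (2 days after birth) from several males. PN14 (postnatal day 14) had replicates 1 and 2, each from 1 male, and PN28 (postnatal day 28) and the adult of 22 weeks had 1 library each, also from 1 male. Every library had its own sequencing lane: lane and stage cannot be told apart, and neither can sex and stage for E18.5. Between 125402932 and 157868359 counts per library fell on genes, and the 7 skeletal muscle markers examined summed to between 17660 and 59860 FPKM in every library. The members were all well measured, with 412 to 13413 counts each per library, and all 10 passed the filter on low counts.

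Levels are given as the FPKM that the authors deposited (fragments per kilobase of transcript, scaled to the counts on genes of the library), which can be compared between genes. Changes are log2 fold changes from edgeR's quasi-likelihood test on the expected counts, scaled between libraries with TMM, a method that sets the typical gene to no change. A gene is called when its p-value, adjusted over the 16882 genes tested, is below 0.05 and its log2 fold change is 1 or more in either direction. The choice of scaling matters for these genes: the top 20 genes by count held 16.7% of all counts at PN2 but 36.9% in the adult, and under library size alone the typical gene had a median log2 fold change of -0.66 from PN2 to PN14 and -1.08 from E18.5 to adult, against -0.01 and -0.05 with TMM. Directions are therefore relative to the typical gene, and where library size alone turns a direction this is stated. Only PN14 was replicated, so every p-value rests on how far those 2 libraries differed. The spread used for a gene draws more on all genes (4.86 prior degrees of freedom) than on the gene itself (1 residual degree of freedom). For the 10 members the difference between the 2 PN14 libraries was small, between 0.020 (Ppargc1b) and 0.230 (Ppard) on the log2 scale after TMM. The spread between mice at the other stages was not measured.

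Over the whole course, 5 of the 10 regulators differed among the stages (edgeR quasi-likelihood test over all stages): Esrra (adjusted p = 0.0043), Ppargc1a (adjusted p = 0.0069), Esrrg (adjusted p = 0.0069), Ppara (adjusted p = 0.0106) and Tfam (adjusted p = 0.0131). The same test called 50.0% of all genes, so the members' share was that of the table as a whole. With library size alone the test called 4 members, Ppargc1b, Ppara, Nrf1 and Esrra, against 60.8% of all genes. Esrra and Ppara were thus the members called under both scalings, and they moved in opposite directions: Esrra rose after PN2, and Ppara was highest in the embryo.

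**Figure D1:**
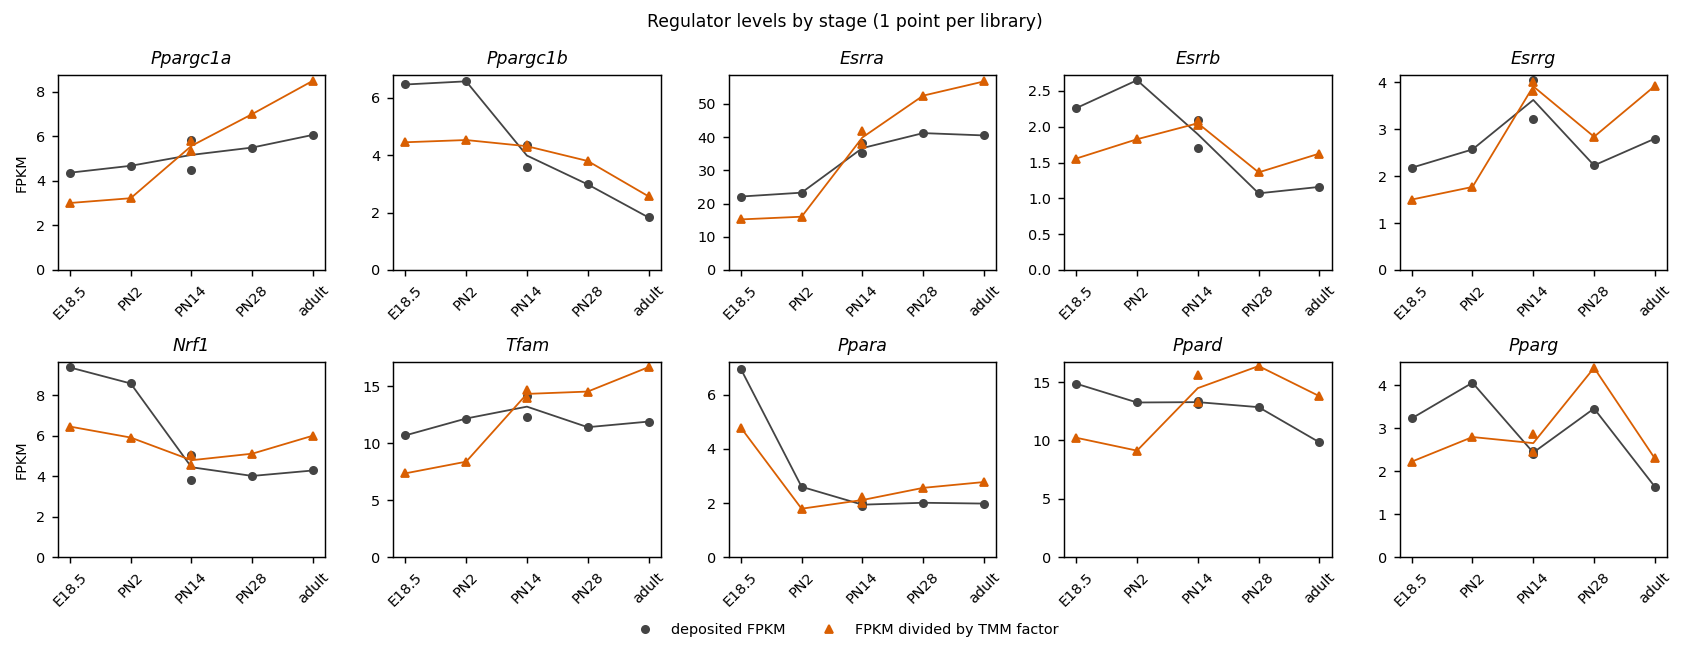
Level of each of the 10 regulators in every library by stage, in FPKM as deposited (grey circles) and after division by the TMM factor (orange triangles); each point is 1 library and the lines join the stages, through the mean of the 2 libraries at PN14. Esrra was higher at PN14, PN28 and in the adult than before on both scales, Ppara was highest at E18.5 on both, and Tfam and Ppargc1a climbed mainly on the TMM scale.

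The promoters of 3 of these genes are shown first, because each holds a recognition sequence of a factor known to act on this network. Esrra (chr19:6985467-6996303, minus strand, mm9) and Ppara (chr15:85565413-85633249, plus strand) both held the core of the NRF1 site, GCATGCGC. Of 32851 promoter windows of 250 bases before the start, 2.26% held it on either strand. Ppargc1a (chr5:51845488-51958964, minus strand) held the core TGACGT of the cAMP response element, present in 6.47% of the windows. The stretches run from 60 to 6 bases before the RefSeq start, read 5′ to 3′ on the strand of the gene, with the match in capitals (in Ppara a run of overlapping matches on both strands, in Ppargc1a the complement of the motif); the sequence is that of RefSeq (GRCm38.p6) and was found unchanged in mm9 at the positions given, outside every exon of GENCODE M1 (that of Ppara lies inside the annotated gene, between exons).
Esrra, chr19:6996304-6996358: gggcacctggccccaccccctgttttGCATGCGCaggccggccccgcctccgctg
Ppara, chr15:85566146-85566200: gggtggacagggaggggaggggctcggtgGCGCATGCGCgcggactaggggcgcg
Ppargc1a, chr5:51958970-51959024: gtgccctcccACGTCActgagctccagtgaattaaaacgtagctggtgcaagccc
The match lay 34 to 27 bases before the start in Esrra, 31 to 22 in Ppara and 50 to 45 in Ppargc1a. RefSeq windows were found for 9 of the 10 members, 16 windows in all. The NRF1 core was in 2 of these 16, with no match in the window of Tfam, and the core of the cAMP response element in 1. Whether a match goes with a called change was not tested. The ERR sequence AAGGTCA (4.08% of all windows) and the MEF2 sequence TAAAAATA (2.45%) had no match in these 16, and the GABP sequence CCGGAAG (6.91%) matched in Tfam alone. A match is a stretch of letters, and none of these factors was measured on DNA here.

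Of the coactivators, Ppargc1a encodes PGC-1α, the member of the family known for its induction by exercise and cold. Its FPKM was 4.37 in the embryo (E18.5), 4.68 at PN2, 4.49 and 5.85 for the PN14 pair (replicate 1, then 2), 5.50 at PN28, then 6.07 for the adult. The deposited levels thus stayed within 1.39-fold of each other, and the PN14 pair alone covered most of that range. Relative to the typical gene, Ppargc1a rose from E18.5 to adult by 1.50 on the log2 scale (SE 0.203, adjusted p = 0.0026) and from PN2 to PN28 by 1.12 (SE 0.201, adjusted p = 0.0135). From PN2 to PN14 its log2 fold change was 0.79 (adjusted p = 0.0237), under the limit on size. The E18.5 to adult value was 0.47 under library size alone and was not called.

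Ppargc1b encodes PGC-1β, a coactivator with overlapping targets that is less tied to exercise. Its FPKM was 6.46 in the embryo (E18.5), 6.57 at PN2, 3.60 and 4.37 for the PN14 pair, 2.98 at PN28, then 1.83 for the adult. These levels went the other way from those of Ppargc1a, and the adult library was the lowest of the 6. Its log2 fold change from E18.5 to adult was -0.79 with TMM (SE 0.208, adjusted p = 0.0214), past the p but short of the size limit, and with library size alone it fell by 1.82 (adjusted p = 0.00028) and was called.

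Because FPKM accounts for length, the make-up of a family within a library can be given without any scaling between libraries. Ppargc1a made up 40.4% of the summed FPKM of the PGC-1 pair at E18.5 and 41.6% at PN2. At PN14 it was 55.5% and 57.2% (mean 56.4% ± 1.23, SD, n = 2), followed by 64.9% at PN28 and 76.8% in the adult. The ratio of Ppargc1a to Ppargc1b accordingly went from 0.676 at E18.5 to 3.32 in the adult, 4.90-fold, where the PN14 replicates differed 1.07-fold. The embryo and newborn libraries therefore held more Ppargc1b than Ppargc1a, and each later library held more Ppargc1a. The ratio itself was not tested. A further gene of the family, Pprc1, which encodes the PGC-1-related coactivator and was singled out after its values were seen, stood at 12.12 FPKM in the embryo (E18.5), 11.06 at PN2, 3.85 and 4.64 for the PN14 pair, 3.42 at PN28, then 4.39 for the adult. From PN2 to PN14 its log2 fold change with TMM was -0.73 (adjusted p = 0.0228). That of Ppargc1b over the same interval was -0.07 (edgeR's quasi-likelihood test, adjusted p = 0.79). The deposited levels of both genes were highest before PN14.

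**Figure D2:**
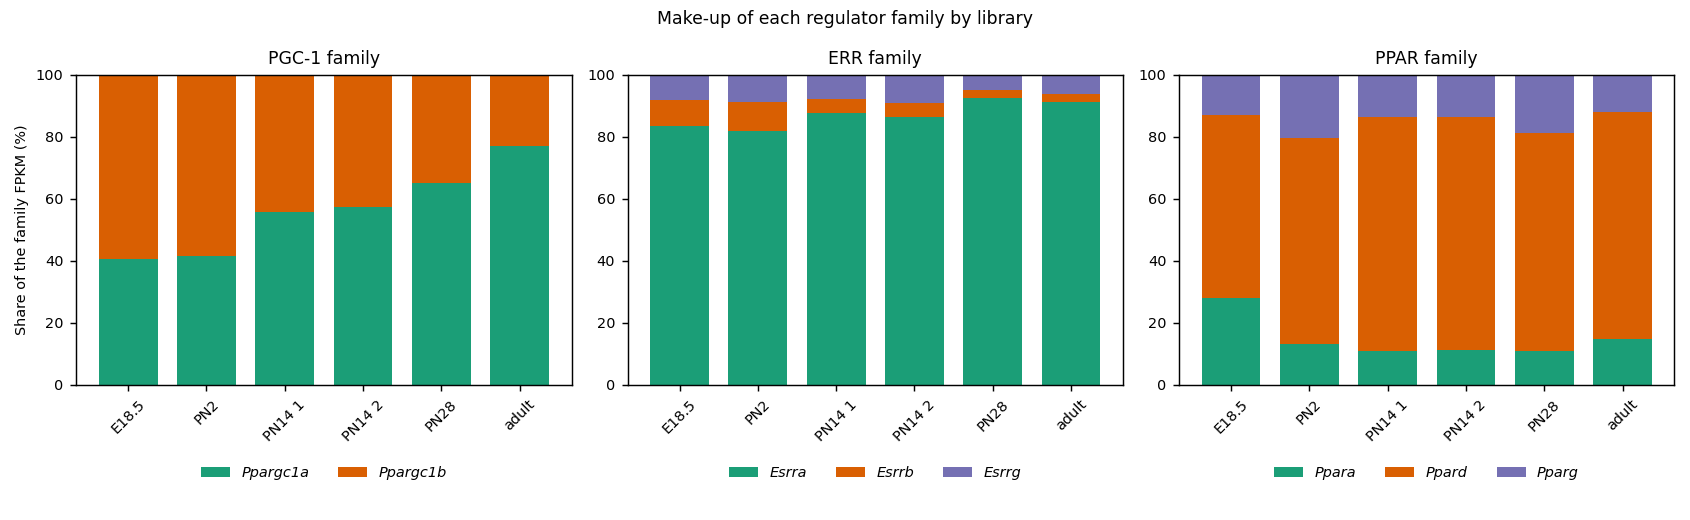
Share of the summed FPKM of the PGC-1 pair, the ERR family and the PPAR family that each gene takes in each of the 6 libraries, in percent; each bar is 1 library. Ppargc1a grows from 40.4% to 76.8% of its pair, Esrra from 83.3% to 91.1% of its family, and Ppara shrinks from 27.8% to 14.7% of its own.

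Among the receptors, Esrra encodes ERRα, an orphan receptor that binds promoters of oxidative phosphorylation genes and depends on PGC-1 coactivators for its activity. It was the most abundant of the 10 genes in every library, at 22.10 FPKM in the embryo (E18.5), 23.27 at PN2, 35.18 and 38.19 for the PN14 pair, 41.20 at PN28, then 40.50 for the adult. The embryo and newborn levels lay close together, and each library from PN14 on lay above both. From PN2 to PN14 Esrra rose by 1.32 on the log2 scale (SE 0.201, adjusted p = 0.0092), from PN2 to PN28 by 1.71 (SE 0.224, adjusted p = 0.0079) and from E18.5 to adult by 1.90 (SE 0.225, adjusted p = 0.0020). The same 3 values were positive but smaller under library size alone, at 0.66, 0.83 and 0.87, and none was called, although the last had an adjusted p of 0.0317.

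Esrrg encodes ERRγ, a receptor known for its abundance in oxidative muscle and heart (chr1:189432670-190038764, plus strand, mm9). Its FPKM was 2.18 in the embryo (E18.5), 2.57 at PN2, 3.21 and 4.04 for the PN14 pair, 2.23 at PN28, then 2.80 for the adult. It was highest at PN14, and the deposited PN28 value was close to that of the embryo. With TMM it rose from PN2 to PN14 by 1.16 (SE 0.187, adjusted p = 0.0103) and from E18.5 to adult by 1.40 (SE 0.209, adjusted p = 0.0033), while its log2 fold change from PN14 to PN28 was -0.46 (adjusted p = 0.59). The first 2 of these were 0.51 and 0.38 under library size alone, not called.

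Esrrb, which encodes ERRβ and is known from stem cells and the placenta (chr12:87702067-87862578, plus strand), was the scarcest receptor of the family in the later libraries. Its FPKM was 2.26 in the embryo (E18.5), 2.65 at PN2, 1.70 and 2.09 for the PN14 pair, 1.07 at PN28, then 1.16 for the adult. With TMM none of its changes was called, the largest over an interval being -0.60 from PN14 to PN28 (adjusted p = 0.58). From E18.5 to adult it was at 0.05 with TMM and -0.97 with library size alone, so its direction there depends on the scaling.

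Within the family, Esrra made up 83.3% of the summed FPKM at E18.5, 81.7% at PN2, 87.8% and 86.2% for the PN14 pair, 92.6% at PN28, then 91.1% for the adult. Esrrb went from 8.52% at E18.5 to 2.61% in the adult and Esrrg from 8.21% to 6.30%. Esrrb and Esrrg were level at E18.5, with an Esrrg to Esrrb ratio of 0.965, and stood at 2.41 in the adult. At PN14 that ratio was 1.89 and 1.93 in the 2 replicates, which differed 1.02-fold.

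Nrf1 encodes nuclear respiratory factor 1 (chr6:29997988-30103458, plus strand, mm9). Its FPKM was 9.36 in the embryo (E18.5), 8.57 at PN2, 3.83 and 5.05 for the PN14 pair, 4.01 at PN28, then 4.28 for the adult. In deposited FPKM the libraries split into high values before PN14 and lower ones from PN14 on, with no overlap. A lower level at PN14 was common on that scale, since with library size alone 23.6% of all genes were higher at PN14 than at PN2. After division by the TMM factor the split was not kept, with 5.998 FPKM in the adult against 5.903 at PN2. In TMM-scaled CPM the adult stayed below PN2, at 17.7 against 19.4. With TMM the log2 fold change was -0.32 from PN2 to PN14 (adjusted p = 0.21) and -0.26 from E18.5 to adult (adjusted p = 0.32), and neither was called. With library size alone it was called as falling by 1.29 from E18.5 to adult (adjusted p = 0.0071) and by 1.16 from PN2 to PN28 (adjusted p = 0.0209).

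Tfam, a classic target of NRF1 (chr10:70688212-70701028, minus strand), was at 10.68 FPKM in the embryo (E18.5), 12.16 at PN2, 12.31 and 14.09 for the PN14 pair, 11.40 at PN28, then 11.89 for the adult. All 6 deposited values lay within 1.32-fold, the narrowest range of the 10 members. With TMM it rose from E18.5 to adult by 1.18 (SE 0.201, adjusted p = 0.0051), and from PN2 to PN14 its log2 fold change was 0.77 (adjusted p = 0.0247), short of the size limit. The E18.5 to adult value was 0.16 under library size alone. Tfam and Nrf1 parted on any scale: the ratio of Tfam to Nrf1 was 1.14 at E18.5, 1.42 at PN2, 3.21 and 2.79 for the PN14 pair, 2.84 at PN28, then 2.78 for the adult. The change in that ratio from PN2 to PN14, 2.11-fold, was larger than the 1.15-fold difference between the replicates.

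The closest courses among the 10 members on the TMM scale were those of Ppargc1a and Tfam, with a root mean square difference of 0.171 between their centred log2 profiles over 6 libraries, followed by Esrrg and Tfam at 0.198. The most unlike were Esrra and Ppara at 0.983, and Ppargc1b and Esrra at 0.975. This is a description of 6 libraries that share stages, lanes and scaling. No member spanned 2 or more on the log2 scale (the widest was Esrra at 1.90), so by the rule for naming genes no other gene of the table was named for its likeness to a member.

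Ppara encodes PPARα, the receptor that drives fatty acid oxidation in liver, heart and muscle. Its FPKM was 6.95 in the embryo (E18.5), 2.60 at PN2, 1.88 and 2.00 for the PN14 pair, 2.01 at PN28, then 1.98 for the adult. The embryo library stood well above the other 5, which lay within a narrow band. From E18.5 to PN2 the log2 fold change was -1.43 (SE 0.211), 2.69 times lower, with an adjusted p of 0.168 in edgeR's quasi-likelihood test, so this comparison was not called. It was the only member with a 2-fold or larger difference over that interval, and both scalings gave -1.43, since the E18.5 and PN2 libraries had nearly the same TMM factors. DESeq2's Wald test (adjusted p = 0.0092), edgeR's exact test (adjusted p = 0.00036) and the quasi-likelihood test without a filter on low counts (adjusted p = 0.0319) did call it, where they called 0.977%, 2.05% and 0.495% of all genes. After PN2 its log2 fold change was 0.25 to PN14 with TMM and -0.41 with library size alone, neither called. E18.5 and adult differed by -0.77 with TMM (adjusted p = 0.0237) and Ppara fell by 1.80 with library size alone (adjusted p = 0.00012).

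The embryo library differs from the PN2 library in sex, in lane and in the mice pooled. PPARα is abundant in liver, and 6 hepatocyte markers, listed after the values of Ppara had been seen, summed to at most 0.13 FPKM in any library, with Fgb at 0 throughout. The 5 brown adipocyte markers, also listed after the values had been seen, summed to 195 FPKM at E18.5 and 299 at PN2. Cox8b, which muscle also expresses, held most of that, at 181 and 267 FPKM, followed by Cidea at 8.01 and 12.0, Cpt1a at 4.95 and 18.4, Elovl3 at 0.96 and 1.15 and Ucp1 at 0.01 and 0.02. The sum, Cox8b, Cidea, Cpt1a and Elovl3 were thus higher at PN2, where Ppara was lower, while Ucp1 was close to 0 in both libraries. The part of such cells in the Ppara values was not tested.

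Ppard encodes PPARδ, the main PPAR of skeletal muscle (chr17:28369699-28438414, plus strand, mm9). It was at 14.86 FPKM in the embryo (E18.5), 13.25 at PN2, 13.15 and 13.41 for the PN14 pair, 12.85 at PN28, then 9.84 for the adult. The values were even up to PN28, with the adult library lowest. With TMM its log2 fold change was 0.67 from PN2 to PN14 (adjusted p = 0.0463) and 0.84 from PN2 to PN28 (adjusted p = 0.0328), short of the size limit, and with library size alone these were 0.0046 and -0.04.

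Pparg encodes PPARγ, the receptor that directs fat cell formation (chr6:115311239-115440419, plus strand). Its FPKM was 3.23 in the embryo (E18.5), 4.06 at PN2, 2.41 and 2.46 for the PN14 pair, 3.46 at PN28, then 1.64 for the adult. It went up and down between stages without a call, with a log2 fold change of 0.71 from PN14 to PN28 (adjusted p = 0.56) and -0.95 from PN28 to adult (adjusted p = 0.19). The 8 adipocyte markers were all present and summed to between 377 and 651 FPKM, most of it Fabp4. Adiponectin (Adipoq), the most specific of them, was at 1.06 FPKM at E18.5, 22.0 at PN2, 4.03 and 2.82 for both PN14 libraries, 17.5 at PN28, then 12.8 for the adult library. Of the 8 markers, 6 were higher at PN2 than in both PN14 libraries (Fabp4 and Lep were not). At PN28, 6 were higher than in that pair (Fabp4 and Lipe were not). With library size alone 23.6% of all genes were higher at PN14 than at PN2, so a lower level at PN14 was common on that scale. From PN14 to PN28, 24.1% of all genes were higher on it. With TMM, edgeR's quasi-likelihood test called Plin1 (-2.32, adjusted p = 0.0084) and Adipoq (-2.00, adjusted p = 0.0100) as falling from PN2 to PN14. It called Lep (2.40, adjusted p = 0.0492) and Fabp4 (1.03, adjusted p = 0.0368) as rising and no other marker, against 23.0% of all genes. From PN14 to PN28 it called Cfd alone of the markers (3.39, adjusted p = 0.0090), against 0.0178% of all genes. In deposited FPKM Pparg too was higher at PN2 and PN28 than in the PN14 pair, and also at E18.5, where Adipoq was lowest. With TMM its log2 fold change from PN2 to PN14 was -0.06 (edgeR's quasi-likelihood test, adjusted p = 0.87). The part of fat cells in the Pparg values was not tested. The 6 macrophage markers, another known source of PPARγ, summed to between 21.8 and 71.2 FPKM, highest at E18.5.

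Within the PPAR family Ppard led in every library, from 59.3% of the summed FPKM at E18.5 to 75.4% in PN14 replicate 1. Ppara made up 27.8% at E18.5, 13.1% at PN2, 10.8% and 11.2% for the PN14 pair (mean 11.0% ± 0.291, SD, n = 2), 11.0% at PN28, then 14.7% for the adult. The ratio of Ppard to Ppara changed 2.38-fold from E18.5 to PN2, whereas the PN14 replicates differed 1.04-fold. Pparg ranged from 12.2% in the adult to 20.4% at PN2.

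In the order of FPKM, Esrra came first in all 6 libraries, Ppard and Tfam followed it, and Esrrb, Esrrg or Ppara was lowest. Tfam and Ppard were not separated at PN14, where replicate 1 had Ppard above Tfam and replicate 2 the reverse. Next came Nrf1 at E18.5 and PN2, and Ppargc1a, which stood below both Nrf1 and Ppargc1b at those stages, passed them from PN14 on.

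By interval, none of the 10 members was called from E18.5 to PN2, where edgeR's quasi-likelihood test called 0.0296% of all genes and an unadjusted p below 0.05 was reached by 1121 genes, among them 1 member, Ppara. From PN2 to PN14 it called 2 members, Esrra and Esrrg, both rising, against 23.0% of all genes in either direction and 11.8% rising; with library size alone it called 0, against 34.5% of all genes. From PN14 to PN28 no member was called (0.0178% of all genes) and none from PN28 to adult (0.521% of all genes). These 2 intervals had 1420 and 3091 genes with an unadjusted p below 0.05, among them the members Esrrg, Esrrb and Pparg in the first and Ppargc1b and Pparg in the second.

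Across the whole course, from E18.5 to adult, 4 members were called, Esrra, Ppargc1a, Esrrg and Tfam, all rising, against 44.9% of all genes in either direction and 21.4% rising. With library size alone 3 members were called, Ppargc1b, Ppara and Nrf1, all falling, against 45.6% of all genes that fell. From PN2 to PN28 the members called were Esrra and Ppargc1a, both rising, against 27.0% of all genes and 14.3% rising, and with library size alone Ppargc1b, Nrf1 and Esrrb, all falling, against 37.3% that fell. The shares called in either direction thus lay near or below the background, and the genes called differed entirely between the scalings in these 2 comparisons. A scaling shifts all genes of a library alike, so the order of the members was nearly the same: Esrra, Ppargc1a, Esrrg and Tfam had the highest fold changes from E18.5 to adult and Ppargc1b and Ppara the lowest under both.

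**Figure D3:**
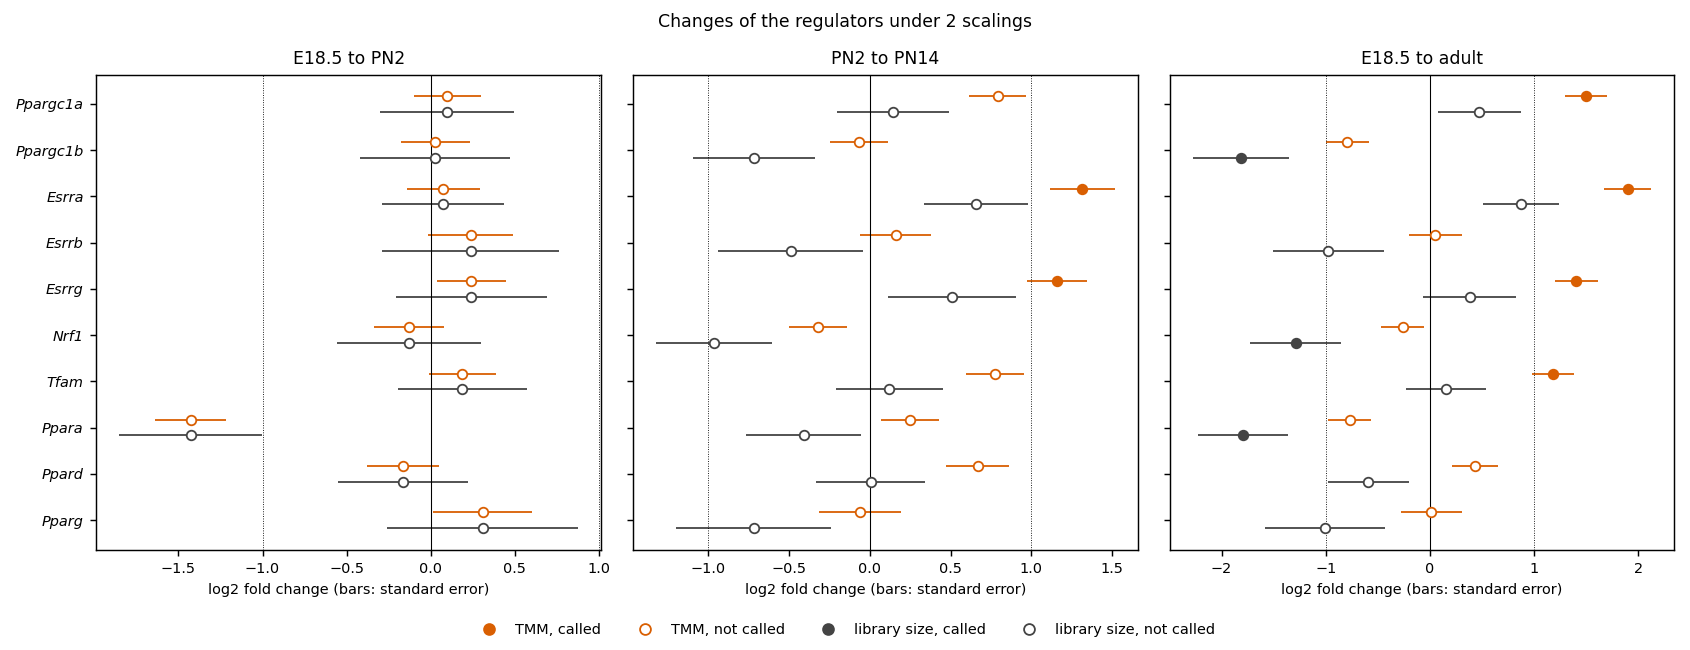
Log2 fold change of each regulator over 3 comparisons with TMM (orange) and with library size alone (grey); bars are standard errors, filled circles are called and dotted lines mark a 2-fold change. From E18.5 to PN2 the 2 scalings coincide, with Ppara at -1.43; from E18.5 to adult the library size values lie lower throughout, and 4 rising calls become 3 falling ones.

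Markers of other cell types moved over the same stages. The 5 fibroblast markers summed to 4257 FPKM at E18.5 and 475 in the adult, the 3 satellite cell markers to 59.6 and 6.82, and the 8 fast fibre markers to 13715 and 103764. Endothelial markers (5) summed to between 59.8 and 238 FPKM and Schwann cell markers (4) to between 35.5 and 624. The 6 slow fibre markers stood between 951 and 3070 FPKM and were lowest in the adult. In whole muscle, fewer cells of a type and less RNA per cell cannot be told apart, and the part of cell make-up in the courses of the regulators was not tested.

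The genes on which these regulators act, and those that act on them, were followed as lists over the interval from PN2 to PN14. The reference is 23.0% of all genes called and a median log2 fold change of -0.01 with TMM. With library size alone it is 34.5% of all genes called and a median of -0.66. Of 24 mitochondrial genes known as ERR and PGC-1 targets, 20 rose and none fell, with a median log2 fold change of 1.76; with library size alone 16 rose. Myoglobin (Mb, the oxygen store of muscle) rose by 5.01 (SE 0.915, adjusted p = 0.0138), from 78.8 FPKM at PN2 to 2163 and 910 in PN14 replicates 1 and 2. The replicates thus differed more than 2-fold for this gene, yet both lay far above PN2. Cox7a1, the muscle form of a cytochrome c oxidase subunit, rose by 4.12 (adjusted p = 0.0032) and Ckmt2, the mitochondrial creatine kinase of muscle, by 4.09 (adjusted p = 0.0087). Over the same interval Esrra and Esrrg were called and Ppargc1a was not, and no test joined the regulators to the list.

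Of 22 muscle genes known as PPAR targets, 8 rose from PN2 to PN14 and none fell, with a median of 0.81; with library size alone 3 rose and 2 fell. The leading genes were Pdk4, which spares glucose by inhibiting pyruvate dehydrogenase, at 1.95 (adjusted p = 0.0467), the uncoupling protein Ucp3 at 1.78 (adjusted p = 0.0120) and the fatty acid binding protein Fabp3 at 1.76 (adjusted p = 0.0153). Pdk4 differed widely between the PN14 replicates, at 132 and 361 FPKM. Between E18.5 and PN2, the interval in which Ppara was 2.69 times lower, all 22 had a higher value at PN2, with a median of 1.18, where 48.3% of all genes were higher. None of the 22 was called by edgeR's quasi-likelihood test with TMM, in which 17 had an unadjusted p below 0.05. With library size alone 8 were called as rising, against 0.817% of all genes. The exact and Wald tests called 9 and 11, against 2.05% and 0.977% of all genes called in either direction. The values, singled out after they were seen, ranged from 0.15 for the lipid droplet protein Plin2 to 3.96 (SE 1.10, adjusted p = 0.49) for Angptl4, a secreted inhibitor of lipoprotein lipase. Angptl4 went from 3.03 to 47.0 FPKM, and Ucp3 from 2.91 to 26.9 FPKM (log2 fold change 3.21, adjusted p = 0.115). The PPAR target list as a whole therefore stood highest at PN14, with summed levels of 879 FPKM at E18.5, 2297 at PN2, 3039 and 3424 for both PN14 libraries, 1812 at PN28, then 1400 for the adult, while Ppara was highest at E18.5 and Ppard nearly even to PN28.

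Of 20 coregulators and retinoid X receptor partners, 2 rose from PN2 to PN14 and none fell, with a median of -0.04. With library size alone 7 were called, 2 rising and 5 falling, near the 34.5% of all genes called. The 2 that rose with TMM were Perm1 and Lpin1. Perm1, a muscle regulator induced by PGC-1 and ERR (listed as 2310042D19Rik), was at 2.67 (SE 0.251, adjusted p = 0.0040). Lpin1, which encodes lipin 1, an enzyme of lipid synthesis and a partner of PGC-1α and PPARα, was at 2.15 (SE 0.357, adjusted p = 0.0112). Perm1 was at 12.4 FPKM at PN2 and 45.8 and 54.7 in PN14 replicates 1 and 2, and Lpin1 at 6.46 and then 20.5 and 15.1.

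Of 13 genes upstream of PGC-1α, 11 of kinases and kinase subunits and 2 of the transcription factors Creb1 and Atf2, 5 rose and 1 fell, with a median of 0.41; with library size alone 3 rose and 2 fell. The AMP-activated kinase subunits of muscle led, Prkag3 at 3.68 (SE 0.520, adjusted p = 0.0078) and Prkab2 at 2.01 (SE 0.436, adjusted p = 0.0217). Camk4, a calcium-dependent kinase, fell by 1.95 (SE 0.308, adjusted p = 0.0099), from 0.81 FPKM at PN2 to 0.10 and 0.17 at PN14, levels at the bottom of the range. Of 15 genes of mitochondrial DNA maintenance and transcription, 3 rose and none fell, with a median of 0.60; with library size alone none rose and 1 fell. These were Tfb2m, which works with TFAM at mitochondrial promoters, at 1.37 (adjusted p = 0.0117), Mterf2 (listed as Mterfd3), a factor that binds mitochondrial DNA, at 1.29 (adjusted p = 0.0094), and the elongation factor Tefm at 1.06 (adjusted p = 0.0129).

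**Figure D4:**
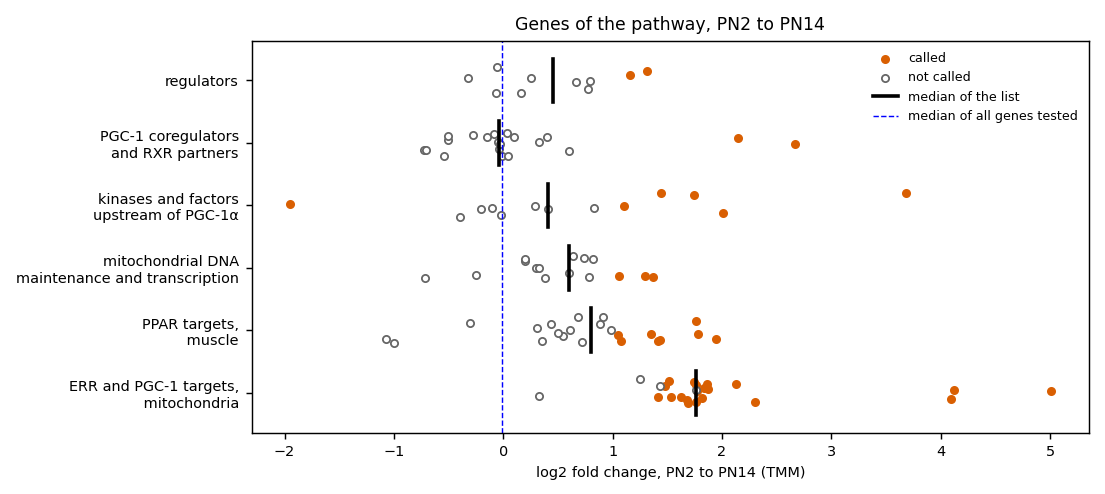
Log2 fold change from PN2 to PN14 with TMM of each gene of the 10 regulators and of 5 lists around them; each point is 1 gene, filled where called, the black bar is the median of the list and the dashed line that of all genes tested. The ERR and PGC-1 targets of mitochondria lie farthest to the right with a median of 1.76, against 0.46 for the regulators and -0.04 for the coregulators.

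From E18.5 to adult, where 44.9% of all genes were called, the counts were 22 of 24 ERR and PGC-1 targets (all rising), 17 of 22 PPAR targets (16 rising, 1 falling), 8 of 13 genes upstream of PGC-1α (6 rising, 2 falling), 7 of 15 mitochondrial DNA genes (6 rising, 1 falling) and 5 of 20 coregulators (all rising). With library size alone the ERR and PGC-1 targets had 11 called (10 rising, 1 falling) and the PPAR targets 10 (8 rising, 2 falling), against 53.6% of all genes in either direction. The PPAR targets had a median log2 fold change of 1.77 under TMM and 0.74 under library size alone, both above the median of all genes.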

How the data were processed

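RNA-seq of gastrocnemius muscle gave 6 libraries, grouped by the stage in their titles. TopHat 2.0.5 was used by the authors to map reads on mm9, and they deposited, for each gene entry of the RefSeq models, RSEM expected counts (whole numbers, not normalized) and FPKM scaled to the library alone; the RSEM version was not given in the sources used here. Fragments that RSEM shared out between similar genes carry its estimate.

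The deposited expected counts were analysed in R 4.3.3 with edgeR 4.0.16 (TMM, filterByExpr with stage as group, quasi-likelihood test, 1 fit of all 6 libraries, Benjamini-Hochberg adjustment). The fit had 1 residual degree of freedom, 4.86 prior degrees of freedom and a common biological variation of 0.188, and assumes that all stages vary as PN14 does. The labels name the PN14 pair only as replicates 1 and 2, and the authors list 1 mouse for each. Standard errors are the log2 fold change divided by the root of F. The steps were tested on simulated data in which a set of genes was changed. That simulation did not model the rise of the most abundant genes, so it cannot test the choice of scaling. FPKM values were used as deposited for levels, shares and ratios, and differences of 2-fold or more were also counted without a test, with 0.1 CPM added.

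The members and gene lists were chosen with earlier results of these data known. All 10 members were named, together with the 3 largest changes among called genes of each list and the nearest profiles of members spanning at least 2 on the log2 scale; 6 list genes matched by an older symbol. Loci came from GENCODE M1 on mm9, and promoter windows from RefSeq. Alternatives were library size or DESeq2 size factors, DESeq2 1.42.0 and edgeR's exact test, no filter at all or a minimum mean of 1 CPM, a pseudocount of 1, deposited FPKM, either PN14 replicate left out and, added after seeing the data, library sizes counted without the 36 genes among the 20 most abundant of any library. Isoforms and proteins were not analysed here.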

Additional observations from a re-analysis of the deposited data

How the results depend on the processing

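The limit on these results is replication and scaling, not depth: 1 residual degree of freedom, and a shift of the typical gene that TMM removes and library size does not. No paired analysis was possible because only PN14 had replicate numbers and each other stage had 1 library. Of 60 log2 fold changes of the members, 30 kept direction and call with library size alone, 8 lost and 6 gained a call and 16 changed sign; with edgeR's exact test 59 kept both and with DESeq2's Wald test 58.

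Counts of members called changed from 0 to 1 (Ppara) for E18.5 to PN2 with DESeq2's Wald test, with edgeR's exact test and with no filter. For PN2 to PN14 they changed from 2 to 0 with library size and with library size without the most abundant genes. These called 5825 and 4443 of all 16882 genes. For PN2 to PN28 the latter setting gave 1 (Esrra) in place of 2, with 5279 of all genes called. For E18.5 to adult it gave 3 (Esrra rising, Ppargc1b and Ppara falling) in place of 4 rising, with 8095 of all genes called. Over all stages it and no filter each gave 6 in place of 5, with 9216 of 16882 and 9306 of 19590 genes called. Deposited FPKM gave 0 members with a 2-fold difference for PN2 to PN14 in place of 2, and 1 (Pparg) for PN28 to adult in place of 0; for E18.5 to adult it gave 3 lower (Ppargc1b, Nrf1 and Ppara) in place of 4 higher, and for PN2 to PN28 3 lower (Ppargc1b, Esrrb and Nrf1) in place of 2 higher. The share of all genes with such a 2-fold difference in FPKM was not counted. With library size alone 23.5% of all genes were higher from E18.5 to adult and 20.4% from PN2 to PN28. List counts for PN2 to PN14 changed with library size to 7 coregulators (4 without the most abundant genes). They also changed with library size to 1 mitochondrial DNA gene and 5 PPAR targets.

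Signs that changed with library size were, for PN2 to PN14, Ppara (-0.41) and Esrrb (-0.49); for PN14 to PN28, Ppard (-0.047), Tfam (-0.21) and Nrf1 (-0.19); for PN28 to adult, Ppara (-0.0046), Nrf1 (-0.0044) and Esrra (-0.026); for E18.5 to adult, Pparg (-1.01), Ppard (-0.59) and Esrrb (-0.97); and for PN2 to PN28, Pparg (-0.24), Ppard (-0.042), Ppara (-0.37), Tfam (-0.092) and Esrrg (-0.19). Without the most abundant genes, an alternative chosen after seeing the data, the signs that changed were Ppara (-0.11) and Esrrb (-0.19) for PN2 to PN14, Tfam (-0.084) and Nrf1 (-0.057) for PN14 to PN28, Ppara (-0.050), Nrf1 (-0.050) and Esrra (-0.071) for PN28 to adult, and Pparg (-0.61), Ppard (-0.19) and Esrrb (-0.57) for E18.5 to adult. Values near 0 also crossed it: for E18.5 to adult, Pparg with DESeq2's size factors and Wald test (-0.0028 in both), with no filter (-0.012) and with a mean of at least 1 CPM (-0.068), and Esrrb with the last (-0.031); without PN14 replicate 2, Pparg for PN2 to PN14 (0.039, against -0.17 without replicate 1) and Tfam for PN14 to PN28 (-0.030, against 0.052); and without PN14 replicate 1, Nrf1 for PN14 to PN28 (-0.025, against 0.12 without replicate 2). Apart from the construction of each scaling, the cause was not tested.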
